A study of Mus musculus with 4 samples.

Results

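The vascular adhesion molecules followed here are 10 genes, taken as a named list from the 31053 genes of the count tables: Icam1, Icam2, Vcam1, Selp, Sele, Pecam1, Cdh5, Esam, Cd34 and Plvap. The list was set by name and not by level, but with earlier results of these data known. Counts of its genes called are therefore set beside the shares over all genes as a description only. The 4 single-cell RNA-seq libraries came from subcutaneous grafts of MycCap, a mouse prostate cancer cell line, and from the stromal/vascular fraction of mouse subcutaneous adipose tissue (SAT). Each tissue was read in 1 control library, whose title names PBS, and in 1 library after D-CAN, a peptide that targets adipose stromal cells (ASC). The labels give the genotype of all 4 as VFB, where the paper names FVB mice for the grafts. The grafts stem from 1 cell line, and the paper states chow as the diet of the grafted mice. Neither the age of the mice nor the pooling of several mice per library is given in the sources used here.

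Leukocytes leave the blood by a cascade of steps on the endothelium of small veins. Selectins on the vessel wall, such as P-selectin (Selp) and E-selectin (Sele), slow the cells to a roll, and immunoglobulin-family ligands of leukocyte integrins, such as Icam1 and Vcam1, then hold them in place. Junction proteins such as Pecam1, Cdh5 and Esam keep neighboring endothelial cells joined. Selp, Sele, Icam1 and Vcam1 are known to rise with inflammatory signals that act through the transcription factor NF-kB, while the junction genes are expressed by resting endothelium.

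Reference promoters of Icam1, Sele and Selp are printed here as background. Whether NF-kB acts on these genes in these cells was not tested. A promoter of 250 bases before the start of the gene was taken from RefSeq on the GRCm38.p6 assembly for 4 of the 10 genes, Icam1, Sele, Selp and Cd34. Capitals mark matches on either strand to GGNNNTTCC, a loose 9-letter pattern modeled on the NF-kB site. A match does not by itself mark a working site. The sequences lie on the + strand at chr9:21015690-21015939 for Icam1, chr1:164047984-164048233 for Sele and chr1:164115014-164115263 for Selp.
Icam1: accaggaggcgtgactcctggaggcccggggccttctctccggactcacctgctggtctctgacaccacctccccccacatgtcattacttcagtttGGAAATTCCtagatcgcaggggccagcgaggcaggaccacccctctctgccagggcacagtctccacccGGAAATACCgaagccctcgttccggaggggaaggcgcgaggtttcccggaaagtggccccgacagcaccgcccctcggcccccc
Sele: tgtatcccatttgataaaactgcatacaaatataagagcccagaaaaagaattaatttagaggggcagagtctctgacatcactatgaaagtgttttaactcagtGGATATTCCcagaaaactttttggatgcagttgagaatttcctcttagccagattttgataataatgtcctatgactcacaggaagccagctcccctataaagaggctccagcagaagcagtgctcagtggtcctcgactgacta
Selp: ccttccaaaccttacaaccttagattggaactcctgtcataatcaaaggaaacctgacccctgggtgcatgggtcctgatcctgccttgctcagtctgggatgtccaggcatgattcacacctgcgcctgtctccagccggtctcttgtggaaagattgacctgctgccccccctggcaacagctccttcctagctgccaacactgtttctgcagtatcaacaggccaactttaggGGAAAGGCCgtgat
The Icam1 window held 2 matches, at 153 to 145 bases before the start, read the same on both strands, and at 84 to 76 bases before it, on the - strand. Sele held 1 match at 145 to 137 bases and Selp 1 on the - strand at 14 to 6 bases. The Cd34 window held 0. Of 32851 mouse promoters of this length, 5144 held a match (15.7%).

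The tables held 9128 cells, 1525 to 2851 per library, with 6667064 to 17996284 UMIs (counted RNA molecules) per library and a median of 1700.0 to 4855 UMIs per cell. Pairs of libraries shared 0 to 2 cell barcodes. Cells were sorted into endothelial, mural, fibroblast, leukocyte and cancer cells by panels of marker genes that hold none of the 10 genes, except that an endothelial cell also needed a Cdh5 UMI. This left 2219 cells unassigned (24.3%). It gave 538 endothelial cells, 73 in the tumor control library, 54 in tumor D-CAN, 263 in SAT control and 148 in SAT D-CAN. Their median depths in that order were 2324, 3079.5, 1777 and 4542 UMIs. Another 170 cells met the endothelial panel but held no Cdh5 UMI and were left out of the class. They numbered 18, 5, 138 and 9 in that order, and those of SAT control had a median of 818 UMIs. The mural class held 17 to 39 cells per library, the fibroblast class 68 to 216 and the leukocyte class 382 to 1622. The labels of tissue were met by the cancer class, with 1003 and 557 cells in the tumor libraries and 1 and 0 in SAT. Summed endothelial panel genes reached 5688 to 8468 CPM (a gene's UMIs scaled to the UMI total of the class in that library) in the endothelial class and 186 to 524, 205 to 235 and 7.26 to 20.4 CPM in the mural, fibroblast and leukocyte classes. These genes set the classes, so the values describe the sorting and do not test it.

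Where each gene was expressed was asked first, over the 4 classes of non-malignant cells. Of the 10 genes, 9 were higher in endothelial than in mural cells, 8 than in fibroblasts and 9 than in leukocytes, and none was called lower. The fit was edgeR's quasi-likelihood test with Benjamini-Hochberg adjustment over 16 sums of UMIs, 1 per class and library, with the library as a block. Over all 13129 genes tested, 10.8% were called against mural cells (5.99% higher and 4.76% lower in endothelial cells). Against fibroblasts 18.2% were called (8.04% higher, 10.2% lower), and against leukocytes 30.5% (14.4% higher, 16.1% lower). The median log2 fold of the 10 genes was 6.97, 7.14 and 7.38 in these 3 comparisons, beside 0.16, -0.03 and -0.20 over all genes. Cdh5 took part in choosing the cells, and its values are a description. It is among the genes called higher in all 3 comparisons and enters the medians. Since every endothelial cell had to hold a Cdh5 UMI, these calls do not test where Cdh5 was expressed. All 3 counts also include Selp and Sele, which had no UMIs in mural cells and few in fibroblasts and leukocytes. Both passed the minimum of 20 UMIs over the fit only through their endothelial counts. Their calls in the 3 comparisons are therefore a description too, and both enter the medians. Here and in every fit that follows, the spread of a gene was estimated with help from the other genes tested. With so few libraries, p-values speak of these samples only, and small ones do not measure a spread between animals.

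The junction genes and Icam2 were far higher in endothelium than in the other classes, with Esam in mural cells as the exception. Pecam1 (chr11:106654217-106750628, - strand), the homophilic receptor also called CD31, stood at 986 and 1117 CPM in the tumor control and D-CAN endothelium and at 1059 and 1089.8 CPM in SAT control and D-CAN endothelium. It was 30.5-fold above leukocytes (log2 4.93, SE 0.52, adjusted p = 1.34e-06), the least of its 3 distances. In SAT leukocytes it reached 63.7 and 59.8 CPM, against 9.28 and 5.45 CPM in the tumor. Icam2 (chr11:106377656-106388075, - strand), a ligand of the leukocyte integrin LFA-1 that resting endothelium carries, was 21.9-fold above leukocytes (log2 4.45, SE 0.50, adjusted p = 2.18e-06). Cdh5 (chr8:104101625-104144511, + strand), the cadherin of endothelial junctions, was at 1259 to 1533 CPM in endothelium, at 6.14 CPM over all mural cells, at 3.20 CPM over all fibroblasts and at 1.86 to 4.54 CPM in leukocytes.

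Mural cells, the pericytes and smooth muscle cells around vessels, shared Esam with the endothelium. Esam (chr9:37528078-37538319, + strand), an immunoglobulin-family protein of tight junctions, stood at 643 and 732 CPM in tumor control and D-CAN endothelium and at 671 and 640.0 CPM in SAT control and D-CAN endothelium. In mural cells it was at 197, 105, 174 and 326 CPM in the same order of libraries. Every endothelial value lay above every mural value, and the difference was 3.83-fold (log2 1.94, SE 0.35, adjusted p = 0.00111). In the same 122 mural cells Pecam1 was at 8.19, Cdh5 at 6.14, Cd34 at 4.10 and Icam2 at 4.10 CPM. In fibroblasts Esam was at 1.60 CPM.

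Both selectins were far higher in endothelium than in any other class. Sele (chr1:164048234-164057677, + strand) and Selp (chr1:164115264-164150026, + strand) are neighbors on the chromosome. Mural cells held 0 UMIs of either gene in all 4 libraries, and 0 of 122 cells allows a share of cells with a UMI of up to 2.46%, which is no limit on cells that express the gene. Against the 3 counts that a count of 0 allows over all mural cells, endothelial Selp was at least 27.2-fold higher and Sele at least 9.10-fold higher. The Sele call against mural cells was lost with DESeq2 (adjusted p = 0.115). Fibroblasts held 0 Sele UMIs and 3 Selp UMIs, all in SAT control, and leukocytes 1 Sele and 10 Selp UMIs. The endothelial level of Selp over leukocytes was 203-fold by counts (95% counting interval 109 to 426).

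Icam1 and Vcam1 were shared with other classes. Icam1 (chr9:21015985-21028817, + strand), the inducible ligand of LFA-1 and Mac-1, stood at 47.8, 83.4, 193 and 217 CPM in tumor control, tumor D-CAN, SAT control and SAT D-CAN endothelium. In leukocytes the same libraries gave 39.9, 43.6, 83.4 and 83.9 CPM, and in fibroblasts 23.0, 30.0, 52.8 and 54.1 CPM. Endothelium had the highest Icam1 of these 3 classes in each library, and in all 3 the SAT values lay above the tumor values. The endothelial level was 2.79-fold above fibroblasts (log2 1.48, SE 0.38, adjusted p = 0.00934, but 0.0739 without the library block) and 8.92-fold above mural cells (log2 3.16, SE 0.54, adjusted p = 0.000654). It did not pass the test against leukocytes (log2 0.55, SE 0.35, adjusted p = 0.252). Mural Icam1 rested on 8 UMIs, of which 6 were in 1 SAT control cell. In the 1560 cancer cells of the tumors it was at 1.64 CPM and in 2.24% of cells, at a median depth of 13178 UMIs, against 13.7% and 16.7% of endothelial cells in those libraries.

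Vcam1 (chr3:116109949-116129688, - strand), the ligand of the integrin VLA-4, was not mainly endothelial. Its endothelial levels were 21.7, 139, 84.0 and 84.1 CPM in tumor control, tumor D-CAN, SAT control and SAT D-CAN. Fibroblasts had 108, 155, 96.4 and 61.4 CPM, mural cells 56.2, 57.0, 11.6 and 5.25 CPM, and leukocytes 23.2, 42.7, 18.3 and 4.47 CPM. Fibroblast levels lay above endothelial ones in 3 of 4 libraries, and the difference did not pass the test (log2 -0.40, SE 0.46, adjusted p = 0.639). Nor did that from mural cells, where the 2 SAT libraries held 1 UMI each (log2 1.70, SE 0.62, adjusted p = 0.0939). That difference was called with no filter on low counts (log2 1.72, adjusted p = 0.0181), with a panel share of 0.9 (3.1, adjusted p = 0.0253) and without tumor control (2.49, adjusted p = 0.0168). Endothelium was 3.50-fold above leukocytes (log2 1.81, SE 0.47, adjusted p = 0.00692). This call was lost without the library block (log2 1.54, adjusted p = 0.0654), without SAT control (log2 1.85, adjusted p = 0.0543) and without SAT D-CAN (log2 1.12, adjusted p = 0.0808). In tumor control the order was the other way, with endothelium (21.7 CPM, from 5 UMIs) just below leukocytes (23.2 CPM) and lowest of the classes.

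Cd34 was shared with fibroblasts, and Plvap was not. Cd34 (chr1:194938819-194961279, + strand), a sialomucin that can carry selectin ligands and that also marks adipose progenitors, stood at 799, 616, 266 and 270.1 CPM in tumor control, tumor D-CAN, SAT control and SAT D-CAN endothelium. In fibroblasts it stood at 129, 122, 971 and 799 CPM. Endothelium was thus above fibroblasts in both tumor libraries and below them in both SAT libraries, and the mean difference over the 4 was near 0 (log2 0.14, SE 0.66, adjusted p = 0.939). Leukocytes reached 1.25 CPM at most. Plvap (chr8:71497765-71511752, - strand), the protein of the diaphragms of endothelial caveolae and fenestrae, was 72.4-fold above mural cells (log2 6.18, SE 0.47, adjusted p = 5.06e-07) and 42.5-fold above fibroblasts (log2 5.41, SE 0.40, adjusted p = 1.03e-07). Antisense or opposite-strand genes overlap Icam1, Vcam1, Selp, Cdh5, Cd34 and Plvap, and no gene overlaps any of the 10 on its own strand. The sources used here do not state whether reads were counted by strand.

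**Figure D1:**
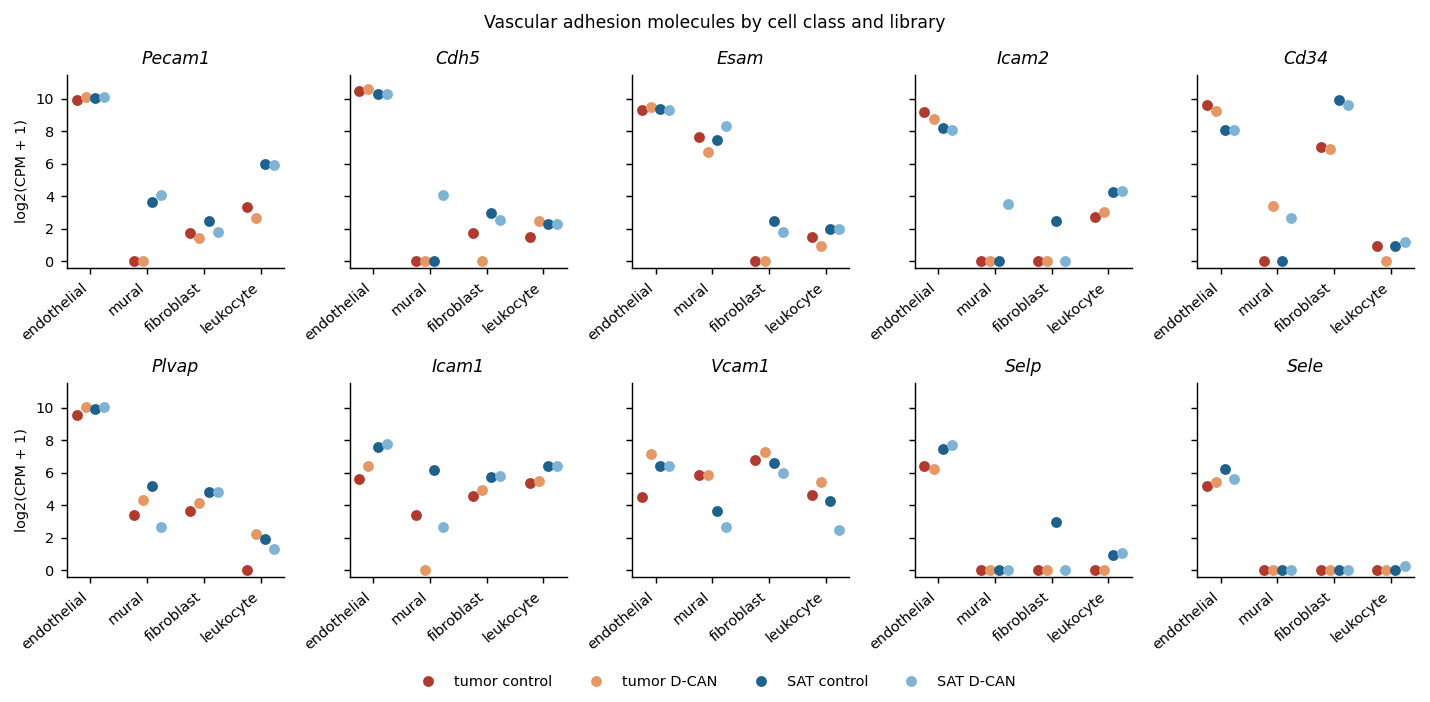
Level of each of the 10 genes as log2(CPM + 1), with 1 panel per gene, the cell classes along the x axis and 1 point per library. Pecam1, Cdh5, Icam2, Selp and Sele stand highest in the endothelial class, Esam also stands high in mural cells, Cd34 in SAT fibroblasts, and Icam1 and Vcam1 in several classes.

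The genes most like the inducible members over the 16 sums of class and library were looked up among 11454 genes with at least 50 UMIs, by Pearson's r of log2(CPM + 1). These are descriptions across sums that share libraries and depth. The nearest to Selp were Ablim3 (r = 0.993), Rasip1 (r = 0.986) and Fam181b (r = 0.983), and the nearest to Sele were Sncaip (0.998), Ptprr (0.998) and Magix (0.997). Icam1 came nearest to Sh3bp5 (0.946), Tgoln1 (0.918) and Gse1 (0.910), and Vcam1 to Abcd3 (0.881), Lbp (0.880) and Fam198b (0.865). The values of r for Icam1 and Vcam1 were lower than those for the selectins, which are at or near 0 in 3 of the 4 classes.

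Tumor endothelium was then set against SAT endothelium. Cd34 and Icam2 were higher in the tumor and Icam1 and Selp were lower, so that 4 of the 10 genes were called. Across the genome 944 of 8527 genes were called (11.1%), 5.82% higher and 5.25% lower in the tumor. Pecam1, Cdh5, Esam and Plvap, the genes of junctions and diaphragms, had log2 differences of -0.05, 0.21, 0.05 and -0.22 in summed level and passed no test. The share of cells with a Plvap UMI is given further below. The median log2 fold was -0.10 over the 10 genes and -0.05 over all genes. The fit was edgeR's quasi-likelihood test with Benjamini-Hochberg adjustment on the 4 endothelial sums with treatment as a block, which leaves 1 residual degree of freedom.

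Cd34 was higher in tumor endothelium. The tumor control and D-CAN endothelium had 799 and 616 CPM from 184 and 133 UMIs, and the SAT control and D-CAN endothelium 266 and 270.1 CPM from 215 and 260 UMIs. The level was 2.59-fold higher in the tumor (log2 1.37, SE 0.19, adjusted p = 0.000581). The share of cells with a Cd34 UMI was 75.3% and 72.2% in the tumor and 33.5% and 54.7% in SAT. Thinned to 1000 UMIs per cell, with 66, 47, 195 and 140 cells deep enough, these shares were 48.5%, 51.1%, 17.9% and 25.0%. The call held in all 14 alternatives, with log2 folds from 1.18 to 1.62.

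Icam2 was at 577 and 440.1 CPM in the tumor and at 300.3 and 269 CPM in SAT (log2 0.81, SE 0.19, 1.76-fold, adjusted p = 0.0150). In thinned cells its share was 36.4% and 38.3% in the tumor and 24.6% and 23.6% in SAT. The call was lost with DESeq2 (log2 0.82, adjusted p = 0.157), without the tumor control library (log2 0.61, adjusted p = 0.206) and without cells holding a UMI of a lymphatic or high endothelial venule marker (log2 0.70, adjusted p = 0.182).

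Icam1, at 47.8 and 83.4 CPM in the tumor and 193 and 217 CPM in SAT, was 3.19-fold lower in the tumor (log2 -1.67, SE 0.28, adjusted p = 0.00215). The tumor values rested on 11 and 18 UMIs, and 9 of the 18 UMIs in tumor D-CAN came from 1 cell. Thinned shares of cells with Icam1 were 6.06% and 6.38% in the tumor and 13.8% and 13.6% in SAT. The direction held throughout, and the call was lost without the tumor control library (log2 -1.32, adjusted p = 0.105) and without the cells with lymphatic or high endothelial venule UMIs (log2 -1.42, adjusted p = 0.122).

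Of the genes followed here, Sele gave the fewest endothelial UMIs in each tissue, with 17 in the tumor and 107 in SAT. Selp gave 35 and 335. Selp stood at 82.5 and 74.1 CPM in the tumor, from 19 and 16 UMIs, and at 173 and 203 CPM in SAT, from 140 and 195 UMIs. It was 2.41-fold lower in the tumor (log2 -1.27, SE 0.27, adjusted p = 0.00882), and this call was lost in 4 of 14 alternatives. These were DESeq2 (log2 -1.26, adjusted p = 0.181), the fits without tumor control (log2 -1.36, adjusted p = 0.115) and without tumor D-CAN (log2 -1.18, adjusted p = 0.0894), and the fit without lymphatic or high endothelial venule UMIs (log2 -0.75, adjusted p = 0.320). Sele was at 34.7 and 41.7 CPM in the tumor and 74.1 and 48.8 CPM in SAT (log2 -0.69, SE 0.39, adjusted p = 0.307). Its tumor values rested on 8 and 9 UMIs, with 6 of the 8 in 1 tumor control cell. Vcam1, at 21.7 and 139 CPM in the tumor and 84.0 and 84.1 CPM in SAT, had tumor values on both sides of the SAT values (log2 -0.15, SE 0.44, adjusted p = 0.879).

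**Figure D2:**
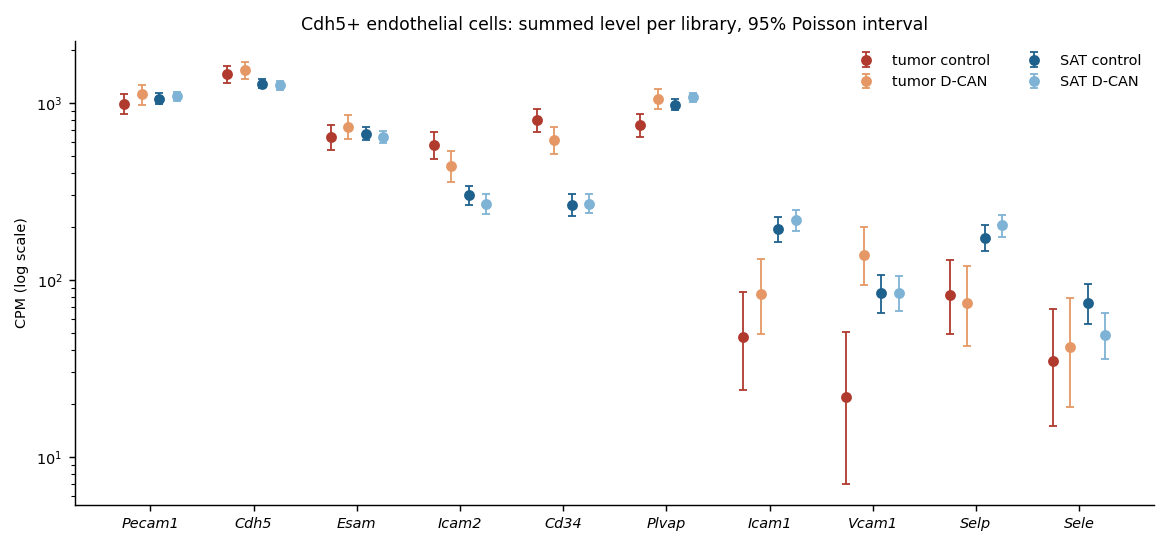
Level of each gene in the endothelial cells of the 4 libraries in CPM on a log axis, with bars for the 95% Poisson interval of the count. The tumor points lie above the SAT points for Cd34 and Icam2 and below them for Icam1 and Selp, while the 2 tumor points of Vcam1 lie far apart.

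Marker UMIs of other cell types in the endothelial class differed with tissue. Whether such cells were present in the class was not tested. Summed macrophage markers (8 genes, all 8 with UMIs in the tumor) were at 130.3 and 88.0 CPM in the tumor libraries and at 30.9 and 13.5 CPM in SAT, where Adgre1 and Csf1r were at 0. Adipocyte markers were at 0 and 18.5 CPM in the tumor, where Adipoq was at 0, and 324 and 408 CPM in SAT. High endothelial venule markers were at 52.1 and 55.6 CPM in the tumor, with Glycam1 at 0, and at 203 and 1020.2 CPM in SAT. Single cells held most of the SAT Glycam1, with 132 of 135 UMIs in 1 control cell and 875 of 933 in 1 D-CAN cell. Lymphatic markers were at 113 and 78.8 CPM in the tumor and 23.5 and 92.5 CPM in SAT, and Prox1 was at 0 except in SAT D-CAN. Mural panel genes were at 182 and 153 CPM in the tumor and 61.8 and 142 CPM in SAT. The part of these markers in the differences was examined only by leaving out cells with lymphatic or high endothelial venule UMIs, as given above. That step took 36 Gpihbp1+ and 9 Gpihbp1- cells from the 127 of the tumor. From the 411 of SAT it took 62 and 20. Called genes fell from 944 to 81, so calls lost there cannot be told apart from the loss of cells. In Gpihbp1+ endothelial cells alone, a choice made after the data were seen, Cd34 (log2 1.52), Icam2 (0.85), Icam1 (-2.11) and Selp (-2.10) were all called. The tumor control and D-CAN values there rested on only 7 and 7 UMIs for Icam1 and 8 and 1 for Selp.

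Around these genes, the junction list (17 genes, of which 14 were tested) had 2 genes higher and 4 lower in tumor endothelium. Mcam, an adhesion molecule of endothelium and pericytes, was higher (log2 3.30), and Jam3 (-1.57), Jam2 (-1.47) and Afdn (-1.33), which build junctions, were lower. Of 8 caveola genes 1 was higher, Cavin3 (1.04), and 3 were lower, Cavin1 (-1.48), Cavin2 (-1.46) and Cav2 (-1.10). Of 17 NF-kB response genes tested 1 was higher, the chemokine Cxcl10 (2.28), and 2 were lower, Irf1 (-1.62) and the inhibitor Nfkbia (-0.88). Of 6 leukocyte counter-receptor genes tested 3 were higher, the integrin chains Itgb3 (3.73), Itgav (2.58) and Itgb1 (1.15), which endothelium also uses to bind matrix. The median log2 folds of these 4 lists were 0.03, -0.51, 0.06 and 1.13. Beside these counts, and those of the vessel types that follow, 11.1% of all genes were called (5.82% higher and 5.25% lower).

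Among the markers of vessel types, 0 of 9 arterial genes tested were called, and 2 of 8 venous genes were lower in the tumor, the chemokine scavenger Ackr1 (-1.93) and von Willebrand factor, Vwf (-1.66). Ackr1 was at 0 in tumor control, 74.1 CPM in tumor D-CAN and 132 and 134 CPM in SAT. Of 2 lymphatic genes tested Flt4 was higher (1.62). Of 2 high endothelial venule genes tested Glycam1 was lower, with 0 tumor UMIs and most of its SAT UMIs in 1 cell per library. The adipocyte gene Car3 was lower (-5.60), as 1 of 2 tested, and the macrophage gene C1qa higher (2.35), as the 1 tested.

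SAT endothelium was then divided into cells with and without a UMI of Gpihbp1. This gene encodes the protein that carries lipoprotein lipase to the lumen of capillaries. Sele, Selp, Vcam1, Icam1 and Plvap were lower in Gpihbp1+ cells, by 2.98- to 12.4-fold, and none of Icam2, Esam, Pecam1 and Cd34 was called. With Cdh5, which took part in choosing the cells, 6 of 10 genes were called. The Cdh5 call was lost in 4 of 12 alternatives, which left 5. Across the genome 518 of 7885 genes were called (6.57%), 2.73% higher and 3.84% lower in Gpihbp1+ cells. The median log2 fold was -1.10 over the 10 genes and 0.04 over all genes. The fit compared the sums of Gpihbp1+ and Gpihbp1- cells within the 2 SAT libraries, with library as a block and 1 residual degree of freedom.

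SAT control held 193 Gpihbp1+ and 70 Gpihbp1- endothelial cells and SAT D-CAN 123 and 25. A cell with 0 Gpihbp1 UMIs may still carry the transcript, and the Gpihbp1- cells were shallower, with a median of 1178 UMIs against 2056 in SAT control and 4167 against 4753 in SAT D-CAN. The 5 lower calls held with cells of at least 1000 UMIs, and in all 12 alternatives.

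Selp was at 84.7 and 115 CPM in the Gpihbp1+ cells of SAT control and D-CAN and at 532 and 826 CPM in the Gpihbp1- cells. The difference was 7.13-fold (log2 -2.83, SE 0.24, adjusted p = 2.25e-30). Sele was at 13.9 and 28.4 CPM in Gpihbp1+ cells and at 319 and 194 CPM in Gpihbp1- cells, a 12.4-fold difference (log2 -3.63, SE 0.35, adjusted p = 1.02e-22). In SAT control 20 of its 60 UMIs came from 1 cell, and 36 of 140 Selp UMIs from 1 cell. Both selectins were lower in the Gpihbp1+ cells of each of the 2 libraries.

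The integrin ligands followed. Vcam1 was at 38.5 and 61.6 CPM in Gpihbp1+ cells of SAT control and D-CAN and at 269 and 244 CPM in Gpihbp1- cells (5.45-fold, log2 -2.45, SE 0.30, adjusted p = 4.46e-14). Icam1 was at 131 and 186 CPM in Gpihbp1+ cells and at 445 and 438 CPM in Gpihbp1- cells (2.98-fold, log2 -1.58, SE 0.24, adjusted p = 3.11e-09). Both libraries gave the same direction with similar levels in the Gpihbp1- cells. Icam2, the constitutive counterpart of Icam1, went from 322 and 274 CPM in Gpihbp1+ cells to 213 and 236 CPM in Gpihbp1- cells and was not called (log2 0.34, adjusted p = 0.633).

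Plvap was at 613 and 950.4 CPM in Gpihbp1+ cells of SAT control and D-CAN and at 2473 and 1955 CPM in Gpihbp1- cells (3.05-fold, log2 -1.61, SE 0.19, adjusted p = 8.80e-15). Its counts were high, with 793 and 1034 endothelial UMIs, of which 95 and 121 came from 1 cell each. The junction genes differed less. Pecam1 was at 975 and 1082 CPM in Gpihbp1+ and 1403 and 1146 CPM in Gpihbp1- cells (log2 -0.39, adjusted p = 0.306), and Esam at 709.8 and 669.5 against 513 and 429.7 CPM (log2 0.47, adjusted p = 0.251). Cd34 was at 248 and 252 against 338 and 396 CPM (log2 -0.63, SE 0.23, adjusted p = 0.0957). Cdh5 was at 1373 and 1354 against 927 and 581 CPM (log2 0.79), a gene on which the cells were gated, and its call was lost with DESeq2 (adjusted p = 0.116), without the block (0.0734), without cells with lymphatic or high endothelial venule UMIs (0.209) and with all 4 libraries (0.383).

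**Figure D3:**
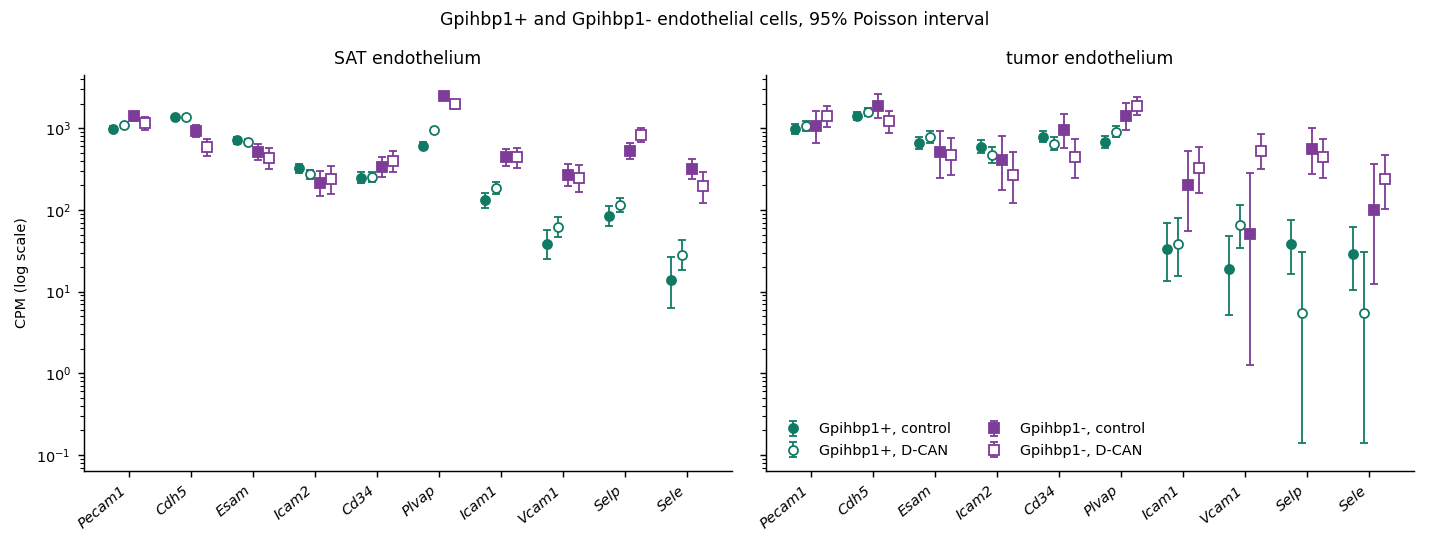
Level of each gene in Gpihbp1+ and Gpihbp1- endothelial cells in CPM, with SAT and tumor in separate panels and filled points for control and open points for D-CAN libraries. In SAT, Selp, Sele, Vcam1, Icam1 and Plvap stand higher in the Gpihbp1- cells of both libraries.

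The marker lists of vessel types were counted in the same comparison, where 6.57% of all genes were called (2.73% higher and 3.84% lower). Of 8 venous genes tested, 6 were lower in Gpihbp1+ cells, Vwf (log2 -3.54), Ackr1 (-3.37), Lrg1 (-2.73), Cpe (-2.25), Tmem252 (-1.78) and the venous transcription factor Nr2f2 (-1.36), with a list median of -2.01. Summed venous markers stood at 704 and 1145 CPM in Gpihbp1+ cells of SAT control and D-CAN and at 3156 and 4179 CPM in Gpihbp1- cells. Of 8 arterial genes tested, 2 were lower, Fbln5 (-1.35) and Stmn2 (-0.96). Of 8 caveola genes, 4 were higher, Cav1 (1.33), Cav2 (1.15), Cavin2 (0.70) and Cavin1 (0.64), and Ehd4 was lower (-1.92). The junction list had 2 of 14 higher, Jup (2.14) and Afdn (1.20). The part of vessel type in the differences of the adhesion genes was not tested.

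Of 15 NF-kB response genes tested, 3 were lower in Gpihbp1+ cells, Csf1 (-1.58), Il6 (-1.47) and Nfkbia (-1.24), and the chemokine Cxcl9 was higher (3.07), with a list median of -1.05. Over all genes 3.84% were lower and 2.73% higher. Of 4 counter-receptor and 2 lymphatic genes tested 0 were called by edgeR. Car3 was higher (2.38), as 1 of 2 adipocyte genes. No macrophage gene had enough UMIs for the test, and macrophage markers summed to 29.3 and 14.2 CPM in Gpihbp1+ and 37.6 and 8.43 CPM in Gpihbp1- cells.

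A UMI of a high endothelial venule marker was found in 7 of 70 Gpihbp1- cells of SAT control and in 10 of 25 of SAT D-CAN. With lymphatic markers added, these were 9 and 11 cells. Among Gpihbp1+ cells, 27 of 193 and 35 of 123 held a UMI of either list. The sum of the high endothelial venule markers was 32.3 and 41.5 CPM in Gpihbp1+ cells and 895 and 7979 CPM in Gpihbp1- cells of SAT control and D-CAN. Nearly all of it was Glycam1, a mucin of high endothelial venules, with 133 UMIs in 2 cells of SAT control and 928 UMIs in 2 cells of SAT D-CAN. Of these, 132 and 875 UMIs were in 1 cell each. Without the cells that held a lymphatic or high endothelial venule UMI, 61 and 14 Gpihbp1- cells and 166 and 88 Gpihbp1+ cells remained. Selp was then at 504 and 796 CPM against 111 and 118 CPM, Sele at 300.5 and 151 against 17.7 and 18.1 CPM, and Icam1 at 341 and 237 against 137 and 161 CPM. The 5 lower calls held without these cells, and Icam1 then came closest to the threshold (log2 -1.08, adjusted p = 0.0483).

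Of the 411 SAT endothelial cells, 144 held a UMI of Icam1, Vcam1, Selp or Sele, 84 of 1 of these genes and 60 of at least 2. Of the 95 Gpihbp1- SAT endothelial cells, 31 (32.6%, exact 95% interval 23.4 to 43.0%) held UMIs of at least 2 of Icam1, Vcam1, Selp and Sele. Of the 316 Gpihbp1+ cells, 29 did (9.18%, 6.23 to 12.9%). By library these shares were 24.3% against 8.29% in SAT control and 56.0% against 10.6% in SAT D-CAN, so that the deeper library gave the higher shares and both the same order. Of the 32 SAT endothelial cells with Sele, 28 held Icam1, 28 held Selp, 25 held Vcam1 and 26 held Ackr1. Of 55 cells with Selp, 48 held Icam1 and 39 held Ackr1. Of the 128 cells with Icam1 48 held Selp (37.5%). These are shares of cells and cover counting error only, as do the intervals of counts given throughout.

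**Figure D4:**
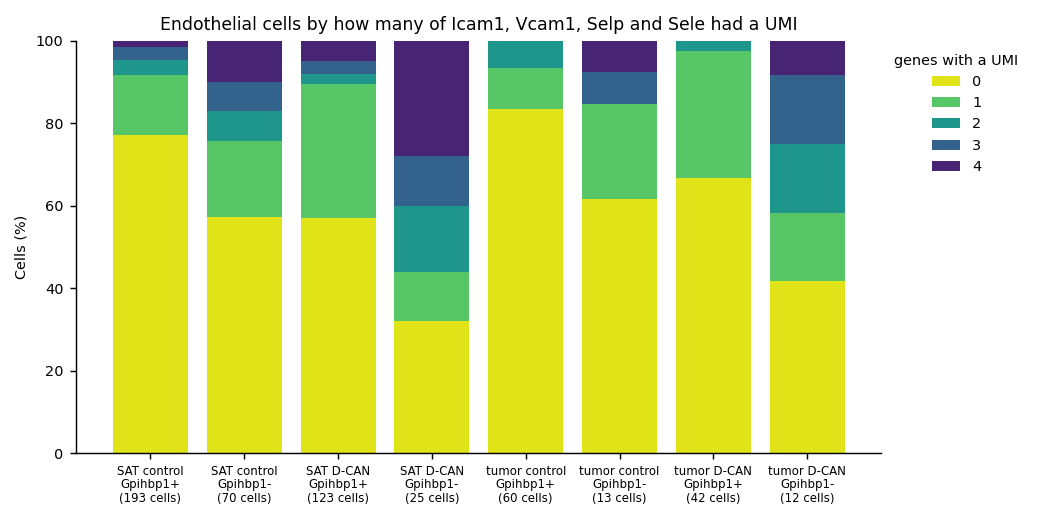
Share of endothelial cells, in percent, by how many of Icam1, Vcam1, Selp and Sele had a UMI in the cell, as stacked bars for Gpihbp1+ and Gpihbp1- cells of each library. Cells with 2 or more of the genes make up 24.3% and 56.0% of the Gpihbp1- cells of the SAT libraries and 8.29% and 10.6% of the Gpihbp1+ cells.

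Tumor endothelium held few Gpihbp1- cells, 13 in the control and 12 in the D-CAN library, against 60 and 42 Gpihbp1+ cells, and its values are given without a test of their own. Selp was at 557 and 443 CPM in Gpihbp1- cells and 38.0 and 5.49 CPM in Gpihbp1+ cells. Icam1 was at 203 and 325 against 33.2 and 38.5 CPM, and Plvap at 1419 and 1862 against 684 and 906 CPM. These levels lay in the same order as in SAT in both tumor libraries, though Selp and Icam1 rested on few UMIs. Selp had 11 and 15 UMIs in Gpihbp1- cells and 8 and 1 in Gpihbp1+ cells, and Icam1 had 4 and 11 against 7 and 7. In tumor D-CAN the share of cells with an Icam1 UMI was 16.7% in both groups. Vcam1 was at 50.7 and 532 against 19.0 and 65.9 CPM and Sele at 101 and 236 against 28.5 and 5.49 CPM, on 1 to 18 UMIs each. Of the Gpihbp1- tumor cells 7 of 25 (28.0%) held at least 2 of the inducible genes, and of the Gpihbp1+ cells 5 of 102 (4.90%). With all 4 libraries in the fit, added after the data were seen, the 5 genes were called lower in Gpihbp1+ cells, from Plvap (log2 -1.13, adjusted p = 0.0103) to Sele (-3.47, adjusted p = 5.28e-17). That fit holds the SAT libraries that gave the 5 calls, so it is no separate result for the tumor.

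In the other classes, tumor and SAT differed in Cd34 and in the leukocyte genes. Fibroblast Cd34, at 129 and 122 CPM in the tumor and 971 and 799 CPM in SAT, was 7.47-fold lower in the tumor (log2 -2.90, SE 0.23, adjusted p = 0.00419), opposite to endothelium. Of the 10 genes 4 could be tested in fibroblasts and Cd34 was the 1 called, where 10.7% of 8056 genes were called (5.10% higher and 5.59% lower). Icam1 (log2 -1.09, adjusted p = 0.101), Vcam1 (0.65, adjusted p = 0.268) and Plvap (-1.02, adjusted p = 0.221) were not, though without SAT control Icam1 (-1.14, adjusted p = 0.0469) and Vcam1 (0.97, adjusted p = 0.0111) were. In mural cells Esam alone had enough UMIs and was not called (log2 -0.80, SE 0.38, adjusted p = 0.140). There 22.9% of 3861 genes were called (10.7% higher and 12.2% lower). The opposite directions of Cd34 in the 2 classes were not tested against each other.

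In leukocytes 7 of the 10 genes could be tested and 4 were called, in a comparison where 48.0% of 11312 genes were (23.9% higher and 24.0% lower in the tumor), so that 4 of 7 is close to the background. Pecam1 was 9.48-fold lower in tumor leukocytes (log2 -3.25, SE 0.27, adjusted p = 9.84e-07). Icam2, at 5.57 and 7.26 CPM in the tumor and 18.7 and 19.0 CPM in SAT, was 3.31-fold lower (adjusted p = 0.00120), a call lost with DESeq2 (log2 -1.73, adjusted p = 0.0844). Icam1 was 2.27-fold lower (log2 -1.18, SE 0.17, adjusted p = 9.19e-05). The cell make-up of the class moved with tissue. All 8 macrophage markers were higher in tumor leukocytes, at 16153 and 14498 CPM in sum against 439 and 218 CPM in SAT.

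Vcam1 in leukocytes had opposite directions in the fits of the whole class and of macrophages, and in macrophages only the control libraries went the other way. It was higher in tumor leukocytes as a whole (log2 1.51, SE 0.48, 2.84-fold, adjusted p = 0.0217), a call lost with DESeq2 (log2 1.62, adjusted p = 0.134), without tumor control (1.81, adjusted p = 0.0796) and without tumor D-CAN (0.93, adjusted p = 0.409). Among leukocytes with at least 2 macrophage marker UMIs (470, 305, 69 and 46 cells in tumor control, tumor D-CAN, SAT control and SAT D-CAN) it was lower in the tumor (log2 -1.51, adjusted p = 0.0113), at 25.6 and 48.6 CPM against 234 and 37.2 CPM. The SAT control value lay far above the other 3, and in the D-CAN libraries the tumor value (48.6 CPM) lay above the SAT value (37.2 CPM). In the remaining leukocytes Vcam1 was at 7.10 and 11.3 CPM in the tumor and 4.14 and 1.74 CPM in SAT. In the same remaining cells Pecam1 stood at 28.4 and 17.0 CPM in the tumor and 66.2 and 61.3 CPM in SAT, and Icam1 at 35.5 and 39.7 against 81.0 and 78.5 CPM.

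The leukocytes also carry the receptors that bind these molecules. Of 15 counter-receptor genes tested, 7 were higher in tumor leukocytes, among them Itgam (log2 4.19), a chain of the Icam1 receptor Mac-1, Itgax (2.42) and Itgav (1.51). Another 7 were lower, among them Itgb3 (-2.30), Itgb7 (-2.28) and Itgal (-1.77), a chain of LFA-1. Itga4, a chain of the Vcam1 receptor VLA-4, was also lower (-1.0). The list median was -0.03, in a comparison where 48.0% of all genes were called (23.9% higher and 24.0% lower). The lymphocyte genes Cd79a and Cd3e had a UMI in 38.0% and 26.6% of SAT control leukocytes and 40.7% and 33.7% of SAT D-CAN leukocytes. In the tumor these shares were 0.178% and 1.07% in control and 0.262% and 1.83% in D-CAN. The part of cell make-up in the receptor differences was not tested.

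D-CAN and control were compared within each tissue by counts alone, with 1 library per treatment and no test run. Over all endothelial cells of a library, Vcam1 in the tumor had the ratio farthest from 1 among the 10 genes and both tissues. It went from 5 UMIs (21.7 CPM) in tumor control to 30 UMIs (139 CPM) in tumor D-CAN, a ratio of 6.40 (interval 2.46 to 21.1), with 11 of the 30 UMIs in 1 cell. In SAT its ratio was 1.0 (0.716 to 1.40). Plvap had ratios of 1.41 (1.16 to 1.73) in the tumor and 1.10 (0.998 to 1.20) in SAT. Cd34 had 0.771 (0.612 to 0.969) in the tumor and 1.02 in SAT, and Sele 1.20 (0.411 to 3.58) and 0.659 (0.440 to 0.981). Differences between mice, preparation and treatment cannot be told apart in these ratios.

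For Icam1 the ratios of D-CAN to control were 1.75 (0.781 to 4.09) in tumor and 1.13 (0.911 to 1.39) in SAT endothelium, and for Selp 0.899 (0.432 to 1.84) and 1.17 (0.938 to 1.47). The intervals of both genes include 1 in both tissues. Icam2 had 0.762 (0.579 to 0.999) in the tumor and 0.896 in SAT. Fibroblast Cd34 had 0.945 in the tumor and 0.822 (0.710 to 0.953) in SAT, and fibroblast Vcam1 1.43 (1.0 to 2.08) and 0.637 (0.372 to 1.07).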

How the data were processed

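Cells of 4 libraries, 1 per tissue and treatment, were captured with 10x 3' chemistry. The authors deposited raw UMI counts per gene and cell from Cell Ranger 3.1.0 with STAR 2.6, per the labels, on mm10 with Ensembl 93 genes (the SAT D-CAN header names Cell Ranger 3.0.2). The tables hold the cells that Cell Ranger called, and no doublets were removed. The members and gene lists were chosen with earlier results of these data known.

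A cell was given a class if it had at least 3 UMIs from at least 2 genes of a marker panel and 0.75 of its panel UMIs from it, and endothelial cells also needed 1 Cdh5 UMI. Of the 2219 unassigned cells, 1509 lay under this minimum of UMIs. Panel genes were left out of the counts of the junction, counter-receptor, NF-kB, caveola, vessel type, macrophage and adipocyte lists. UMIs were summed per library and class and tested with edgeR 4.0.16 (quasi-likelihood, TMM, at least 20 UMIs over the fit, Benjamini-Hochberg over all genes, threshold 0.05) in R 4.3.3. Standard errors are the unshrunk log2 coefficient over the root of F.

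The block was treatment in the tissue comparisons and library in the others, where both cell groups come from the same library. Alternatives were DESeq2 1.42.0 as test and for size factors, no filter, panel shares of 0.9 and 0.5, at most 20% mitochondrial UMIs, no block, each library left out, other definitions of the endothelial, Gpihbp1 and macrophage cells, and shares of cells thinned to 1000 UMIs. The share of 0.5, Gpihbp1+ cells alone and all 4 libraries were added after seeing the data. Intervals are exact Poisson or binomial at 95%, from scipy 1.17.1. The text names the 10 members, 2 to 4 called genes of a list with the largest changes (more where all are given), and for Icam1, Vcam1, Selp and Sele the 3 genes with the highest correlation.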

Additional observations from a re-analysis of the deposited data

Results flagged for a closer look

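Vcam1 in leukocytes moved in opposite ways with D-CAN in the 2 tissues. The ratio of D-CAN to control was 1.84 (95% counting interval 1.11 to 3.12) in the tumor, from 23.2 to 42.7 CPM, and 0.245 (0.150 to 0.388) in SAT, from 18.3 to 4.47 CPM. With 1 library per group the difference between the tissues was not tested. Leukocytes with macrophage marker UMIs numbered 470 and 305 in the tumor libraries and 69 and 46 in the SAT libraries, and within them Vcam1 went from 25.6 to 48.6 CPM in the tumor and from 234 to 37.2 CPM in SAT.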

How the results depend on the processing

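The counts of called genes depended on the test and on single libraries more than the members' directions did. With DESeq2's Wald test the count fell from 944 to 297 in endothelium, 886 to 168 in mural cells, 861 to 319 in fibroblasts, 5427 to 2471 in leukocytes and 518 to 115 between Gpihbp1+ and Gpihbp1- cells. DESeq2's size factors gave 1453 in fibroblasts, and no filter on low counts 1610. A panel share of 0.9 gave 369 in mural cells and 1471 in fibroblasts, and a share of 0.5 gave 578 and 1309. Without cells with lymphatic or high endothelial venule UMIs 81 genes were called between tumor and SAT endothelium and 176 between Gpihbp1+ and Gpihbp1- cells, with macrophages only 990 in leukocytes, and with all 4 libraries 266 in the Gpihbp1 comparison. Without the replicate block, here the treatment or library, fibroblasts gave 1377, and the block moved no other count by over 1.5 times. It decided 3 member calls, Cdh5 in the Gpihbp1 comparison (log2 0.76, adjusted p = 0.0734 without the block), endothelial Icam1 over fibroblasts (log2 1.66, adjusted p = 0.0739) and Vcam1 over leukocytes (1.54, adjusted p = 0.0654).

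Leaving out each library gave 114 to 1014 called genes in endothelium, 0 to 625 in mural cells, 381 to 1834 in fibroblasts, 4234 to 5189 in leukocytes, and 741 to 1138, 1535 to 2010 and 2375 to 3644 for endothelial against mural, fibroblast and leukocyte cells. In endothelium the fit without tumor control gave 114 and without tumor D-CAN 413. The 0 in mural cells came from edgeR without SAT control, with 988 genes at an unadjusted p under 0.05. A library could not be left out of the Gpihbp1 comparison, which would leave 1.

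Directions turned for members that were not called. In tumor against SAT endothelium, leaving out each library gave log2 values from -1.93 to 0.70 for Vcam1, -0.11 to 0.03 for Pecam1 and -0.45 to 0.02 for Plvap, each highest without tumor control. Plvap was at 0.14 with a panel share of 0.9 and 0.05 in Gpihbp1+ cells, and Esam at -0.04 with no filter and -0.02 without tumor D-CAN. In leukocytes Cdh5 was at 0.46 with a share of 0.9 and from -1.22 to 0.05 without each library, and Plvap from -5.94 to 0.67, both highest without tumor control. Cd34 in endothelium against fibroblasts was at -0.31 without the block and from -0.73, without tumor control, to 1.01 without each library, with -0.64 without tumor D-CAN. The 1 called member that turned was leukocyte Vcam1, at -1.51 in macrophages only, and its call was also lost with DESeq2 (adjusted p = 0.134), without tumor control (0.0796) and without tumor D-CAN (0.409). Fibroblast Icam1 (-1.14, adjusted p = 0.0469) and Vcam1 (0.97, adjusted p = 0.0111) were called without SAT control. The causes were not tested. In tumor endothelium, with 73 and 54 cells, Icam1, Vcam1, Selp and Sele rest on 5 to 30 UMIs per library, which limits their precision.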
